A study of Mus musculus with 32 samples.

Results

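The adhesion G protein-coupled receptors (adhesion GPCRs) of the Adgr gene family were followed through fat cell differentiation, with Adgrf5 at the centre. The 10 genes, Adgrf5, Adgra2, Adgra3, Adgrd1, Adgre5, Adgrg1, Adgrg2, Adgrg6, Adgrl1 and Adgrl2, were taken by symbol from the 20560 genes of the expression table, and all 10 were found. Adgrf5 was chosen by its rise in knockdown libraries, one of the largest, so its difference between knockdown and control is given as a description without a test. The other 9 were chosen as members of its family. The cells were 3T3-L1, a mouse line of preadipocytes that take on a fat cell character when treated with hormones. RNA was sequenced from cells carrying shRNA #1 or shRNA #2 against Zbtb9 (genotype given as Zbtb9 knockdown) or the scramble control shCtrl (genotype given as WT). Each shRNA had 2 libraries and shCtrl had 4 at each of days 0, 3, 7 and 11, which gave 32 libraries. All groups received dexamethasone, 3-isobutyl-1-methylxanthine and insulin at day 0, insulin alone from day 3 and plain medium from day 7. The cells were labelled preadipocytes at day 0, premature adipocytes at days 3 and 7 and mature adipocytes at day 11. The libraries were labelled as biological replicates, but how the shRNAs were delivered, and whether replicates came from separate infections, is not stated, so p-values measure the spread between these libraries.

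Adhesion GPCRs carry a long extracellular part that binds matrix proteins or proteins of neighbouring cells, and a 7-helix membrane part that couples to G proteins. Most cut themselves at a site next to the membrane, and the short stretch freed by this cut, the tethered agonist, can switch on the receptor. In fat cells, G proteins that raise or lower cyclic AMP set lipid breakdown, and cyclic AMP is also raised by the methylxanthine of the differentiation mixture. Adgrf5, also called GPR116, is best known for limiting surfactant in lung alveoli, is present in many endothelial cells, and has been studied in adipose tissue, where Fndc4 has been reported as its ligand.

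Because Adgrf5 differed most between knockdown and control among these genes, the stretches before its transcription starts are shown. RefSeq lists 2 start sites for Adgrf5 (GRCm38.p6, plus strand), and the 250 bases before each are printed 5′ to 3′, with motif matches in capitals. The first window is chr17:43360181-43360430 and the second is chr17:43389216-43389465.
Adgrf5 start 1: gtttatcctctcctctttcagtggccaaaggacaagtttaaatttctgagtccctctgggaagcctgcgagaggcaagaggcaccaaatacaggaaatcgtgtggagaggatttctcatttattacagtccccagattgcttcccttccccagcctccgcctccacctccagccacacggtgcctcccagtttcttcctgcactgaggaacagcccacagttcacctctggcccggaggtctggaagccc
Adgrf5 start 2: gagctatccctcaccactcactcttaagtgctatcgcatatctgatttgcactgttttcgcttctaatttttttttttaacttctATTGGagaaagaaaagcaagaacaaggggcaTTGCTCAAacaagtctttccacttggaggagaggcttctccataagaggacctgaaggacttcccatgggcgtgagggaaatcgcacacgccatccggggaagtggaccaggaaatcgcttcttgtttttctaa
The windows were searched on both strands for AGGTCA (a motif of nuclear receptors), TTGCNNAA (a form of the C/EBP site), CCAAT and TATAAA, motifs that do not overlap one another in these windows. The second window held TTGCNNAA, as TTGCTCAA, beginning 134 bases before the start, and CCAAT on the other strand, as ATTGG, beginning 165 bases before it. The first window held none of the 4. Of 32851 RefSeq windows of the same length, 9.6% held TTGCNNAA, 33.8% held CCAAT, 14.0% held AGGTCA and 12.4% held TATAAA, so a CCAAT match is common. Windows were found for 7 of the 10 genes, 9 windows in all, and the only other match was TATAAA in that of Adgrl2, beginning 53 bases before the start. Reads were counted per gene, so the use of the 2 starts was not analysed here.

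The table holds log2 values from which whole reads could be rebuilt, and values below are given as normalized reads, which are reads divided by the size factor of the library. Differences and their standard errors (SE) are on the deposited log2 scale, which draws low values together and so understates the change of genes with few reads. Libraries held 22280321 to 31073716 reads in genes. The depths of the arms overlapped except at day 11, where knockdown libraries had at most 25511819 reads and control libraries at least 26486035. Zbtb9, the targeted gene, had 12.7 to 22.3 normalized reads in the day 7 control libraries and 4.87 to 9.28 in knockdown libraries. It passed the filter on low values through its control libraries, so its values are given without a test. At day 0 it had 13.5 to 14.9 in controls and 4.62 to 10.6 in knockdown libraries, and at day 3, where the groups overlapped, 6.35 to 12.6 and 0 to 8.99. At day 11 knockdown libraries had 2.13 to 19.3, and 1 shRNA #1 library, at 19.3, was within the control range of 12.1 to 20. Of its exon bases, 84.4% are shared on the same strand with Ggnbp1 in the annotation used. Its reads are few, and how the authors counted shared bases is not given in the sources used here. Summed over 10 adipocyte markers (Pparg, Cebpa, Fabp4, Adipoq, Plin1, Cidec, Lpl, Cd36, Lipe and Cfd), control libraries had 20079 to 20663 normalized reads at day 0 and 58967 to 69234 at day 11. Lpl alone had at least 15513 in every library and so made up most of the day 0 sum. The median log2 change of the 10 markers from day 0 was 2.28, 6.04 and 4.86 in controls at days 3, 7 and 11. Summed over 9 preadipocyte and fibroblast markers they had 672058 to 714122 at day 0, 253052 to 269100 at day 3 and 650205 to 750503 at day 11. Of 8 of these markers tested at day 11 against day 0, 4 were called lower (Pdgfra, Pdgfrb, Col1a2 and Vim) and 2 higher (Fn1 and Ly6a), where 64.6% of all genes were called. At day 3, 7 were lower than at day 0 and 1, Ly6a, was higher, where 76.6% of all genes were called.

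In control cells Adgrf5 was barely detected before differentiation, peaked at day 7 and then fell back in part. The control libraries had 7.58, 13.2, 16.9 and 4.14 normalized reads at day 0. At day 3 they had 22.1, 9.52, 26.2 and 13.8, and at day 7 they had 183, 147, 151 and 159. By day 11 they were at 46.4, 58.9, 49.4 and 79.9. Every day 7 and day 11 library was above every day 0 library, while days 0 and 3 overlapped. The log2 rise over day 0 was 2.73 at day 7 (SE 0.155, limma adjusted p = 6.36e-16) and 1.47 at day 11 (adjusted p = 1.25e-09), where 69.1% and 64.6% of all genes tested were called in either direction. In mean normalized reads these were 15.3-fold and 5.61-fold. The day 3 rise of 0.40 (adjusted p = 0.0211) was not called in every fit. It was 0.27 with libraries scaled to equal totals (adjusted p = 0.107) and 0.87 with rebuilt reads (voom, adjusted p = 0.0679). It also lost the call without day 0 control replicate 1 (adjusted p = 0.0654) or 4 (0.113), or day 3 control replicate 1 (0.0703) or 3 (0.0987).

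In the knockdown cells Adgrf5 stood at about the control level before differentiation and about 10 times above it at days 3, 7 and 11 with both shRNAs. At day 0 the shRNA #1 libraries had 6.47 and 14.2 normalized reads and the shRNA #2 libraries 3.51 and 4.64, within or just below the control range. At day 3 they had 201 and 164 with shRNA #1 and 160 and 208 with shRNA #2. At day 7 the values were 1869 and 2128, and 1583 and 2132. At day 11 they were 530 and 464, and 492 and 712. From day 3 on, the lowest knockdown library was far above the highest control library of the same day. The ratio of mean normalized reads, knockdown over control, was 0.689 before differentiation and then 10.2, 12 and 9.38 on the following days. On the log2 scale the differences were -0.16, 2.50, 3.34 and 2.88 (SDs of the control and knockdown groups 0.13 to 0.33), and with voom on rebuilt reads they were -0.49, 3.40, 3.58 and 3.24. These values chose the gene and are given as a description, with 3.25%, 26.7%, 47.6% and 33.0% of all genes called at days 0, 3, 7 and 11.

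**Figure D1:**
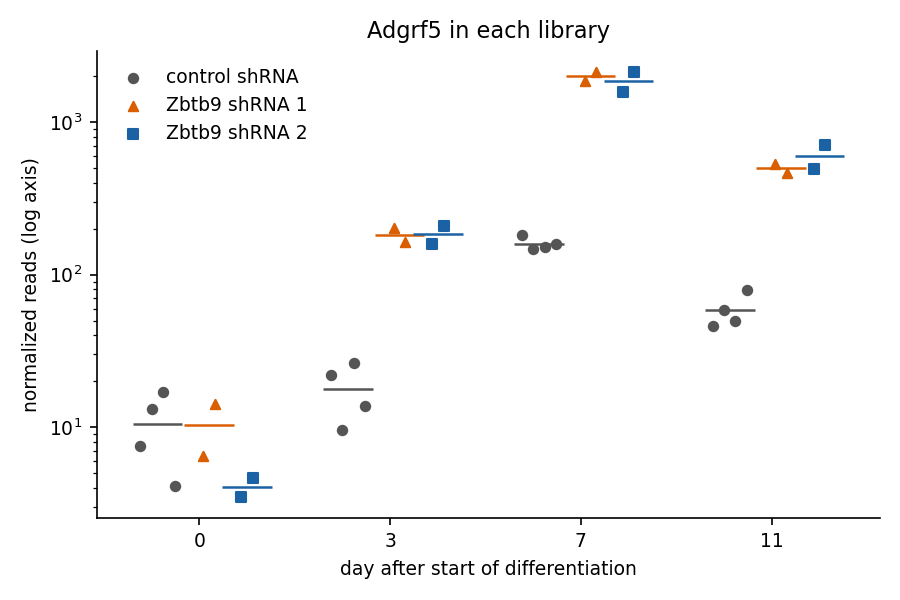
Normalized reads of Adgrf5 in each library (log axis) against day, with control libraries in grey circles, shRNA #1 in orange triangles and shRNA #2 in blue squares, and the group mean as a line. At day 7 the knockdown libraries lie between 1583 and 2132 and the control libraries between 147 and 183, while at day 0 all 8 libraries lie between 3.51 and 16.9.

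The shape of the time course was shared by both arms: a peak at day 7 and a lower level at day 11. The knockdown libraries of day 3 (160 to 208) had reached the level of the control libraries of day 7 (147 to 183). The shRNAs, whose comparison with each other did not enter the choice of the gene, were not called different on any day. Their log2 difference, shRNA #2 minus shRNA #1, was -0.34 at day 0 (SE 0.203, adjusted p = 0.211) and 0.01 at day 3 (SE 0.189, adjusted p = 0.989). It was -0.11 at day 7 (SE 0.120, adjusted p = 0.601) and 0.24 at day 11 (SE 0.200, adjusted p = 0.431). Across all genes, 35.0%, 19.6%, 16.4% and 22.0% were called between the shRNAs on these days. In bulk RNA, more cells with a transcript and more transcript per cell cannot be told apart.

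Markers of fat cells moved with Adgrf5. The 10 adipocyte markers summed to 28875 to 34332 normalized reads in control and 47660 to 65134 in knockdown libraries at day 3. At day 7 the ranges were 52208 to 56824 and 145088 to 216121, and at day 11 they were 58967 to 69234 and 125275 to 150227. Of the 10 markers, 10, 10 and 9 were called higher in knockdown at days 3, 7 and 11, and 1, Lpl, at day 0, where 14.6%, 24.9%, 16.8% and 0.817% of all genes were called higher on these days. Their median log2 differences were 0.02, 0.97, 1.96 and 1.74 at the 4 days, against 0.00 to 0.01 in size for all genes tested. The part of this in the Adgrf5 values was not tested. Of the 7 endothelial markers, which mark a type where Adgrf5 is usual, Cdh5, Kdr, Tie1 and Emcn had at most 8 reads in any library. Summed over all 7, day 7 control libraries had 36.4 to 58.9 normalized reads and knockdown libraries 44.1 to 73.1, where Adgrf5 alone had 1583 to 2132.

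The genes whose means were most like Adgrf5 over the 12 shRNA-by-day groups were Prxl2a (Pearson r = 0.987), Itga7 (0.983), Ndufs7 (0.980), Ndufs3 (0.978) and Pdhb (0.977), out of 13570 genes compared. Itga7 encodes a laminin-binding integrin chain, Ndufs7 and Ndufs3 are subunits of mitochondrial complex I, and Pdhb is a subunit of pyruvate dehydrogenase. The correlations describe these 12 means, which share libraries between genes. Itga7 went from 7.23 in day 0 controls to 9.51 in day 7 controls and to 11.32 and 11.52 with shRNA #1 and #2 at day 7, on the log2 scale. Pdhb moved less, from 10.45 to 11.17 and to 12.29 and 12.16. Among the other family members, r with Adgrf5 over the same means was 0.79 for Adgrg1, 0.71 for Adgrd1 and 0.44 for Adgrg2. It was negative for the other 6, at -0.95 for Adgrl1, -0.70 for Adgra3, -0.58 for Adgrg6, -0.57 for Adgra2, -0.04 for Adgrl2 and -0.03 for Adgre5.

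Of the other 9 members, 7 were expressed enough to be tested in the knockdown comparison, and Adgrd1 and Adgre5 were not. At day 0, 1 of 7 was called, at day 3 it was 3 of 7, at day 7 all 7 and at day 11 it was 5. The shares of all genes called were 3.25%, 26.7%, 47.6% and 33.0%, so at days 7 and 11 a call was common for any gene. The calls went both ways: at day 7 Adgrg1, Adgrg2, Adgrl2 and Adgra3 rose and Adgra2, Adgrg6 and Adgrl1 fell. Knockdown and control ranges were apart for 1, 3, 7 and 6 of the 7 on the 4 days, as for 13.9%, 28.3%, 44.2% and 34.3% of all genes tested. The effect at a later day differed from that at day 0 for 2 members at day 3, 5 at day 7 and 4 at day 11. This was out of 8 tested, these 7 and Adgrd1, where 6.57%, 29.9% and 23.2% of all genes were called. In the control time course all 7 changed by day 3, 6 by day 7 (not Adgra2) and all 7 by day 11, where 76.6%, 69.1% and 64.6% of all genes were called. The median log2 difference of the 7 was 0.24 at day 7 and -0.20 at day 11, against 0.01 and -0.01 for all genes.

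**Figure D2:**
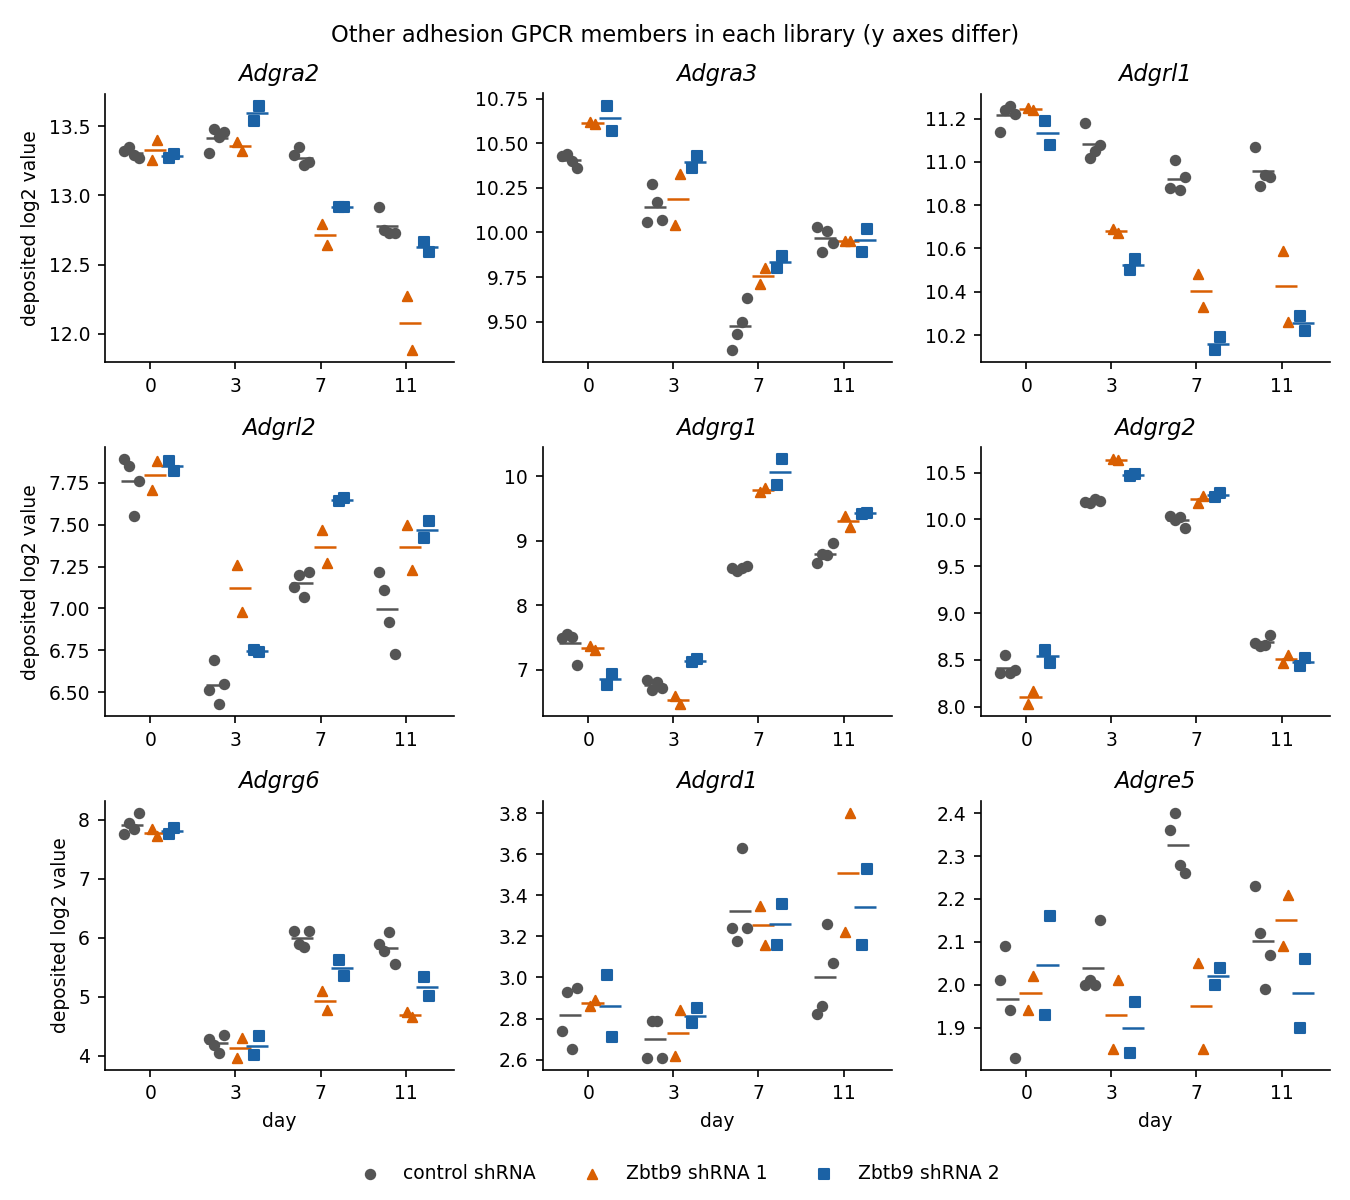
Deposited log2 value of the 9 other members in each library against day, with the symbols of the plot of Adgrf5 and a y axis for each gene. Adgrg1 at day 7 has control libraries from 8.53 to 8.61 and knockdown libraries from 9.75 to 10.26, and Adgrg6 drops from 7.91 to 4.22 in the control mean between days 0 and 3.

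Adgrg1 (GPR56), a receptor for collagen III and transglutaminase 2 that signals to RhoA, gave the largest difference between the arms among these 7. Its control libraries had 397, 381, 396 and 406 normalized reads at day 7. The shRNA #1 libraries had 949 and 1006 and the shRNA #2 libraries 1040 and 1383. Every knockdown library was more than double the highest control library, and the log2 difference was 1.35 (SE 0.0933, limma adjusted p = 1.87e-08). At day 11 control libraries had 416, 464, 459 and 525 normalized reads, shRNA #1 had 728 and 636 and shRNA #2 had 741 and 750, a difference of 0.57 (SE 0.0808, adjusted p = 0.000293). The arms overlapped at days 0 and 3, with differences of -0.31 (adjusted p = 0.284, but 0.0216 with the shRNAs as separate groups) and 0.08 (adjusted p = 0.744). At those days the shRNAs differed from each other, shRNA #2 being lower by 0.49 at day 0 (adjusted p = 0.00783) and higher by 0.61 at day 3 (adjusted p = 0.00298). Without day 0 shRNA #1 replicate 1 or shRNA #2 replicate 1, the day 0 difference had adjusted p-values of 0.0599 and 0.0891. At day 7 shRNA #2 was higher than shRNA #1 by 0.28 (SE 0.102, limma adjusted p = 0.0635). This passed the threshold with equal totals (0.0349) and with voom on rebuilt reads (0.0386), and was 0.08 to 0.47 with single libraries left out. In control cells Adgrg1 fell by 0.64 at day 3 and rose by 1.17 at day 7 and 1.39 at day 11 (limma adjusted p at most 1.24e-07).

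Adgrg6 (GPR126), a receptor for laminin-211, collagen IV and the prion protein that raises cyclic AMP and is required for myelination by Schwann cells, went the other way. In control cells it was at 292, 342, 315 and 389 normalized reads at day 0 and at 7.36, 5.29, 3.14 and 8.50 at day 3, a 55.1-fold lower mean. It then returned in part, to 74.8, 61.9, 58.3 and 75.1 at day 7 and 61.0, 55.1, 73.2 and 44.6 at day 11. The log2 changes from day 0 were -3.69, -1.92 and -2.08 (SE 0.121 each, limma adjusted p at most 5.89e-16). Knockdown libraries came back less: at day 7 they had 27.4 and 17.4 with shRNA #1 and 47.2 and 36.0 with shRNA #2. At day 11 they had 17.4 and 14.8, and 35.1 and 24.4. No knockdown library reached the control range on either day, and the differences were -0.78 (SE 0.160, adjusted p = 0.000835) and -0.89 (SE 0.165, adjusted p = 0.00165). The shRNAs differed by 0.54 at day 7 (SE 0.181, adjusted p = 0.0395), shRNA #1 being the lower, though this call was lost without day 7 shRNA #1 replicate 2 (adjusted p = 0.346) or shRNA #2 replicate 1 (0.273) or 2 (0.0506), and in 4 of the other fits (0.0566 to 0.128). At days 0 and 3 the arms overlapped.

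Adgrg2 (GPR64), known for fluid uptake in the efferent ducts of the testis, rose early and fell late. Control libraries had 312, 358, 312 and 319 normalized reads at day 0, 1208, 1196, 1234 and 1216 at day 3, and 395, 387, 391 and 424 at day 11. The control rise was 1.78 at day 3 (SE 0.0563, adjusted p = 8.83e-25), 1.58 at day 7 and 0.27 at day 11. At day 0 the shRNAs stood on opposite sides of the control mean, at -0.32 for shRNA #1 and 0.13 for shRNA #2, and differed by 0.44 (SE 0.102, adjusted p = 0.000993). At day 3 shRNA #1 libraries had 1680 and 1666 and shRNA #2 libraries 1476 and 1498, above all controls (difference 0.36, SE 0.0539, adjusted p = 0.000264). At day 7 the difference was 0.24 (adjusted p = 0.00189). At day 11 knockdown libraries, at 329 to 359, were below all controls, with a difference of -0.20 (SE 0.0678, adjusted p = 0.0447). The day 11 call was lost when any single library other than shRNA #1 replicate 2 was left out (adjusted p 0.0433 to 0.119 over the 8 libraries), and with no filter on low values (0.0594). It was also lost with the replicate number as a block (limma adjusted p = 0.288).

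Adgra2 (GPR124), which with Reck forms the receptor complex for Wnt7a and Wnt7b in brain vessels, was the most abundant member. Its control libraries had 10298, 10492, 10079 and 9927 normalized reads at day 0 and 7733, 6849, 6749 and 6738 at day 11, a fall of 0.52 (SE 0.0410, limma adjusted p = 2.59e-13). The small day 3 rise of 0.11 (adjusted p = 0.0161) became -0.02 with libraries scaled to equal totals, which moved the median of all genes to -0.12 in that comparison. It also lost the call without day 3 control replicate 2 (adjusted p = 0.0652) or 4 (0.0565), without trend and robust settings (0.0575) or in 1 fit of all 32 libraries (0.348). At day 7 control libraries had 10062, 10484, 9577 and 9706 and knockdown libraries 7037, 6299, 7697 and 7740, without overlap (difference -0.46, SE 0.0628, adjusted p = 2.18e-05). At day 11 all 4 knockdown libraries (4847, 3651, 6403 and 6101) were below all controls, and the difference of -0.44 (SE 0.158) missed the threshold with an adjusted p of 0.0654. It passed without shRNA #1 replicate 2 (-0.28, adjusted p = 0.0319), shRNA #2 replicate 1 (-0.54, 0.0240) or shRNA #2 replicate 2 (-0.52, 0.0473), with voom (0.0389), with the shRNAs as separate groups (0.000587) and in 1 fit of all 32 libraries (0.00117). The shRNAs differed on that day, shRNA #2 being higher by 0.55 (SE 0.108, adjusted p = 0.00399), or by 0.35 without shRNA #1 replicate 2. It was also the higher by 0.24 at day 3 (adjusted p = 0.000397, but 0.072 without trend and robust settings). At day 7 it was higher by 0.21 (adjusted p = 0.019), a call lost with no filter (0.0585), without trend and robust settings (0.125) and in 1 fit of all 32 libraries (0.0817). That call was also lost without shRNA #1 replicate 2 (difference 0.13) or shRNA #2 replicate 1 (difference 0.21) or 2 (difference 0.20).

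Adgra3 (GPR125), a relative of Adgra2 without a firmly established ligand, fell during control differentiation and was higher in knockdown than in control cells at days 0 and 7. Control libraries had 1396, 1409, 1363 and 1323 normalized reads at day 0 and 629, 672, 710 and 779 at day 7, a log2 fall of 0.93 (SE 0.0564, adjusted p = 2.41e-16). Knockdown libraries at day 7 had 826, 880, 880 and 929, above all controls (difference 0.32, SE 0.0706, adjusted p = 0.00164). It was the one member called at day 0, where knockdown libraries had 1607, 1594, 1710 and 1552 (difference 0.22, SE 0.0460, adjusted p = 0.0262). Leaving out any of 7 of the 8 libraries took that call away (adjusted p 0.0502 to 0.0932), as did limma without trend and robust settings (0.0566), while the fit without shRNA #2 replicate 2 kept it (0.0252). At days 3 and 11 the arms overlapped.

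The latrophilins Adgrl1 and Adgrl2, receptors for teneurins and for FLRT proteins on neighbouring cells, moved in opposite directions in knockdown against control. Both fell in the control time course. For Adgrl1 the log2 change from day 0 was -0.30 at day 7 (SE 0.0449, limma adjusted p = 5.44e-07) and -0.26 at day 11 (adjusted p = 5.53e-06). Adgrl1 had 2351, 2096, 2132 and 2175 normalized reads in the day 3 controls, 1650 and 1619 with shRNA #1 and 1437 and 1490 with shRNA #2. At day 7 the controls had 1891, 2077, 1868 and 1954 and the knockdown libraries 1415, 1264, 1093 and 1142. At day 11 these were 2163, 1900, 1974 and 1958 against 1529, 1201, 1231 and 1166. No knockdown library overlapped the controls from day 3 on, and the differences were -0.48 (SE 0.0552, adjusted p = 3.40e-05), -0.64 (SE 0.0715, adjusted p = 2.75e-06) and -0.62 (SE 0.0802, adjusted p = 0.000148). At day 0 the difference was -0.03 (adjusted p = 0.806). The shRNAs differed at day 7, shRNA #2 being lower by 0.25 (adjusted p = 0.0168), which did not hold without shRNA #1 replicate 1 (0.231) or shRNA #2 replicate 1 (0.114), with no filter (0.0549) or without trend and robust settings (0.0912). Of Adgrl1 exon bases, 15.6% are shared with genes on the other strand, and whether reads were counted by strand is not given in the sources used here.

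Adgrl2 fell in control cells from 256, 249, 195 and 230 normalized reads at day 0 to 79.9, 94.1, 74.3 and 82.9 at day 3, a log2 fall of 1.21 (SE 0.105, adjusted p = 1.60e-12). The day 3 knockdown libraries had 153 and 121 with shRNA #1 and 98.9 and 97.7 with shRNA #2, above all controls by 0.38 (SE 0.126, adjusted p = 0.0362). At day 7 controls had 137, 146, 130 and 148 and knockdown libraries 183, 154, 210 and 213 (difference 0.36, SE 0.108, adjusted p = 0.0121). At day 11 controls had 148, 135, 115 and 97.5 and knockdown libraries 187, 150, 175 and 190 (difference 0.42, SE 0.122, adjusted p = 0.0203). The arms were close but did not overlap on these days. At day 3 the call needed shRNA #1 replicates 1 (adjusted p without it 0.111) and 2 (0.0709) and control replicates 1 (0.0830), 3 (0.0998) and 4 (0.0769), and missed the threshold with no filter (0.0723) and with voom (0.0563). At day 11 it needed shRNA #1 replicate 1 (0.0527) and control replicates 3 (0.0598) and 4 (0.0606). The calls at days 3, 7 and 11 were lost with the replicate number as a block (limma adjusted p = 0.3, 0.103 and 0.272).

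**Figure D3:**
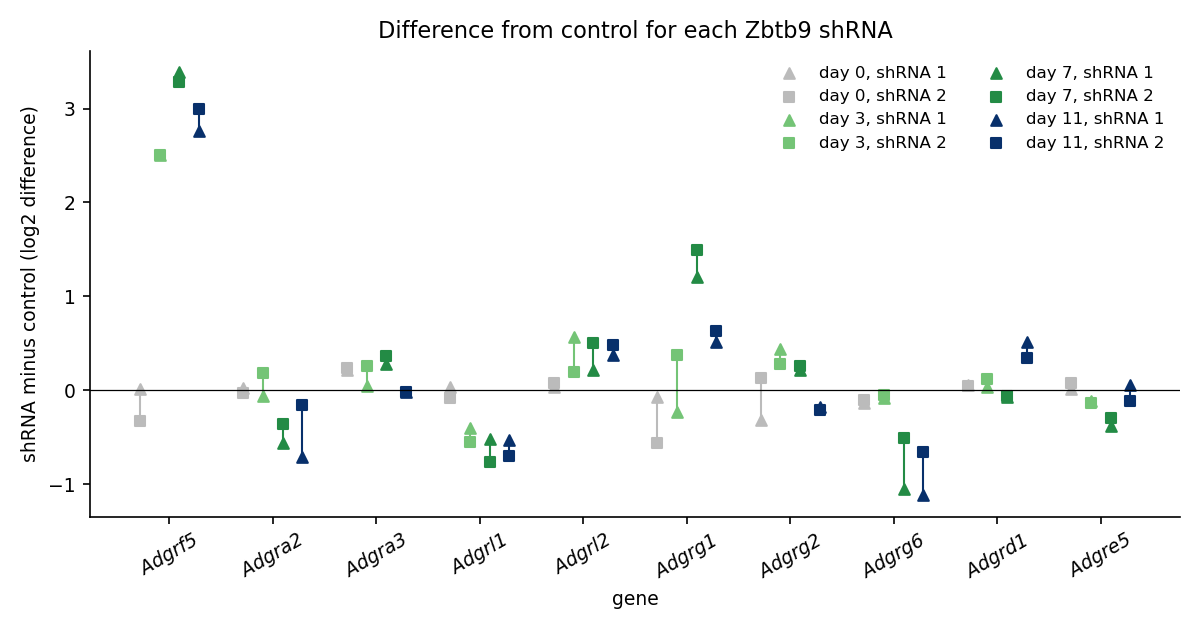
Log2 difference from the control mean for shRNA #1 (triangles) and shRNA #2 (squares) at each day (colours), for all 10 genes. Adgrf5 lies between 2.50 and 3.39 from day 3 on with both shRNAs, and the other points lie between -1.12 and 1.49.

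Adgrd1 (GPR133, a cyclic AMP-raising receptor for which Ptk7 has been reported as a ligand) and Adgre5 (CD97, a leukocyte receptor that binds Cd55, Thy1 and integrins) were close to the limit of detection. Neither entered the test of knockdown against control on any day. Adgrd1 entered the test of the difference of effects between days and was not called at day 3, 7 or 11. Adgrd1 had 12.2 to 27.2 normalized reads in controls and 11.5 to 17.5 in knockdown libraries at day 7, and 4.07 to 14.3 and 11.7 to 35.2 at day 11, with overlap on both days. Adgre5 had 11.8, 13.2, 9.71 and 9.24 in the day 7 controls and 4.06, 0, 3.15 and 3.90 in the knockdown libraries, its one day without overlap. Of its exon bases, 23.8% are shared with Ddx39 on the other strand.

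Divided by exon length, the levels of the members spanned over 3 orders of magnitude and Adgrf5 changed its place in the order. At day 0 controls the means ran from Adgra2 at 1766 normalized reads per kb (SD 43.0), through Adgrl1 (281), Adgra3 (169), Adgrg2 (61.7), Adgrg1 (29.8), Adgrg6 (27.4) and Adgrl2 (16.4), to Adgrf5 (1.16), Adgre5 (0.686) and Adgrd1 (0.486). Adgrg1 and Adgrg6 overlapped, as did the last 3, and the other neighbours did not. At day 7 controls Adgrf5, at 17.8 (SD 1.78), held place 6, apart from Adgrg1 above it (72.9) and Adgrl2 below it (9.87). In day 7 knockdown libraries it held place 3 at 214 (SD 29.0), with ranges that overlapped those of Adgrg2 (237) and Adgrg1 (202) on either side. At day 11 Adgrf5 held place 7 in controls (6.51), overlapping Adgrl2 (8.73) and Adgrg6 (4.78), and place 6 in knockdown libraries (61.0), overlapping Adgrg2 (65.2). Adgra2 remained first in both arms on every day.

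**Figure D4:**
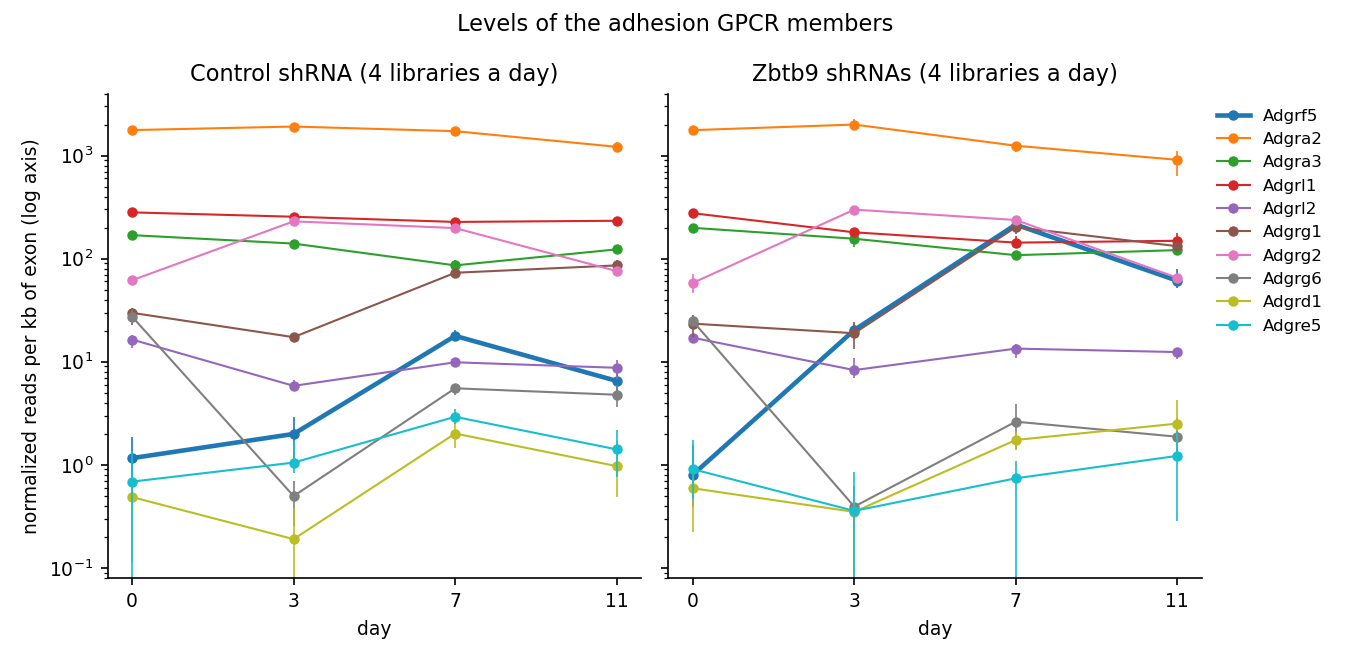
Mean normalized reads per kb of exon (log axis) for the 10 genes against day, in control libraries (left) and Zbtb9 shRNA libraries (right), with vertical lines from the lowest to the highest of 4 libraries, those reaching 0 being drawn to the axis. The thick line of Adgrf5 goes from 1.16 to 17.8 in controls and from 0.799 to 214 in knockdown libraries between days 0 and 7.

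Of 20 further adhesion GPCRs, 14 were in the table and 2 were expressed enough to be tested. Adgrb2, a relative of the brain angiogenesis inhibitor Adgrb1, had 57.3 to 90.3 normalized reads in controls and 28.3 to 48.7 in knockdown libraries at day 7 (difference -0.61, SE 0.137, adjusted p = 0.00184), and its differences of -0.17, -0.36 and -0.45 at days 0, 3 and 11 were not called. Adgrl3, another latrophilin, had 20 to 30.9 and 6.38 to 15.3 at day 11 (difference -0.56, SE 0.127, adjusted p = 0.00554), with differences of -0.01, 0.05 and -0.23 and no call on the other days. The other 12, among them Celsr1, Celsr2, Celsr3 and the endothelial Adgrl4, had at most 20 reads in any library. Adgrf1, Adgrf2 and Adgrf4, the other F-group genes in the table, had at most 9, 6 and 3 reads, against up to 2132 normalized reads for Adgrf5.

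Genes for reported ligands and partners of these receptors were examined as a list of 30, of which 29 were in the table and 20 were tested. In knockdown cells 0 rose and 1 fell at day 0, 1 rose and 8 fell at day 3, 3 rose and 10 fell at day 7, and 3 rose and 7 fell at day 11. Over all genes, 0.817%, 14.6%, 24.9% and 16.8% were called higher and 2.44%, 12.1%, 22.6% and 16.2% lower on these days. The median log2 difference of the list was -0.09, -0.17, -0.19 and -0.03 at the 4 days, with all genes between -0.01 and 0.01. Adipocyte markers rose at days 3, 7 and 11, and their part in these counts was not tested.

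Fndc4, the reported Adgrf5 ligand, was lower in knockdown cells at days 7 and 11. At day 7 it had 210 to 289 normalized reads in controls and 98.4 to 121 in knockdown libraries (difference -0.97, SE 0.109, limma adjusted p = 2.86e-06). At day 11 the difference was -0.49 (SE 0.104, adjusted p = 0.00406), and at days 0 and 3 it was -0.03 and -0.15 without a call. It also fell in controls, by 1.28 from day 0 to day 3 (adjusted p = 4.12e-16). Tgm2, the transglutaminase that binds Adgrg1, rose with its receptor at day 7, from 23.6 to 35.8 normalized reads in controls to 97.6 to 168 in knockdown libraries (difference 1.49, SE 0.138, adjusted p = 3.86e-07). At day 11 its groups overlapped slightly and the difference was 0.49 (adjusted p = 0.0342).

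Flrt2, a latrophilin ligand, was lower in knockdown cells on all 4 days. Its controls had 1417 to 1529 normalized reads at day 0 and 1410 to 1568 at day 7, and knockdown libraries had 988 to 1334 and 261 to 615. The differences were -0.36 (SE 0.0803, adjusted p = 0.0379), -0.56, -1.74 (SE 0.216, adjusted p = 0.000317) and -1.08 at days 0, 3, 7 and 11. Thy1, the glycoprotein bound by Adgre5 and a marker of fibroblasts, was lower at days 3, 7 and 11, with differences of -0.45, -0.77 and -0.58 (adjusted p = 1.96e-05, 1.99e-08 and 0.00127), and had a difference of -0.15 at day 0 (adjusted p = 0.231). At day 7 it had 3111 to 3324 normalized reads in controls and 1730 to 2004 in knockdown libraries, and at day 11 it had 1772 to 2125 and 1100 to 1604. Ptk7, reported to bind Adgrd1, had 6644 to 6973 and 4698 to 5130 at day 3 (difference -0.46, SE 0.0417, adjusted p = 4.95e-06). Its difference was -0.50 at both later days (adjusted p = 4.42e-06 and 9.83e-05) and -0.15 at day 0 (adjusted p = 0.104). Prnp, the prion protein and an Adgrg6 ligand, rose at days 3, 7 and 11 by 0.23, 0.37 and 0.56 (adjusted p = 0.0101, 0.000114 and 1.45e-05), reaching 14604 to 15984 normalized reads against 9843 to 10550 at day 11.

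**Figure D5:**
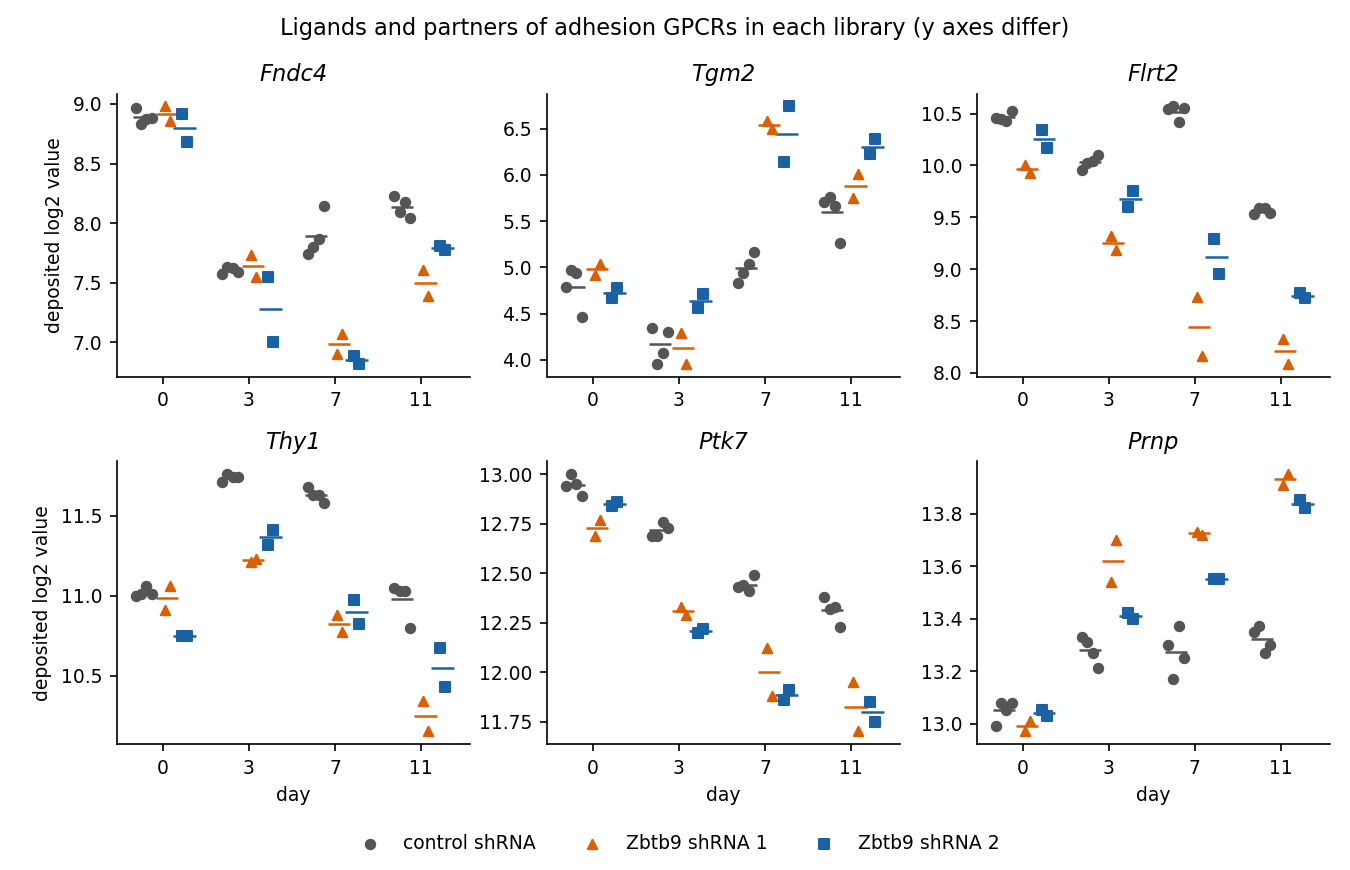
Deposited log2 value of 6 ligand and partner genes in each library against day, with the symbols of the plot of Adgrf5 and a y axis for each gene. Flrt2 lies below the controls on every day, Tgm2 and Fndc4 part from the controls in opposite directions at day 7, and Prnp lies above the controls from day 3.

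Of 25 genes for G proteins, adenylyl cyclases, arrestins and RhoA activation, 24 were in the table and 19 or 20 were tested. At day 0, 0 rose and 0 fell, at day 3 1 rose and 5 fell, at day 7 2 rose and 5 fell, and at day 11 2 rose and 4 fell, where 0.817%, 14.6%, 24.9% and 16.8% of all genes were called higher and 2.44%, 12.1%, 22.6% and 16.2% lower. The medians were -0.03, -0.04, -0.02 and -0.01. Adcy5, an adenylyl cyclase, had 3.46 to 18.7 normalized reads in controls and 43.0 to 70.1 in knockdown libraries at day 7. It entered the test on that day through its knockdown libraries, with 3 of 4 controls under the filter, so it is given without its test although it is 1 of the 2 counted as higher. Arrb1, the arrestin that ends receptor signalling, was lower at day 3 (-0.51, SE 0.0801, adjusted p = 0.000387) and higher at day 7 (0.45, SE 0.0698, adjusted p = 7.85e-05) and day 11 (0.33, adjusted p = 0.0286). Gna13, which links receptors to RhoA, rose by 0.27 (adjusted p = 0.00374) at day 3 and by 0.38 (0.000105) at day 11. Gnao1, an inhibitory G protein subunit, fell by 0.37 at day 3 (adjusted p = 3.27e-05) and by 0.40 at day 7 (1.91e-05). It was also called lower at day 11, with 2585 to 2947 normalized reads in knockdown libraries and 3149 to 3382 in controls. Arhgef1, a RhoA activator, fell by 0.31, 0.27 and 0.28 at days 3, 7 and 11 (adjusted p = 0.00016, 0.000457 and 0.000861). Gnai2, another inhibitory subunit, fell by 0.26, 0.35 and 0.27 (adjusted p = 0.00725, 7.17e-05 and 0.0103). Adcy7 had 17.2 to 24.6 normalized reads in controls and 4.87 to 16.2 in knockdown libraries at day 7 (difference -0.45, adjusted p = 0.0137), and was not called on the other days (differences -0.18, -0.02 and 0.05).

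Adgrf5 lies on chromosome 17 from 43360451 to 43459557 on the plus strand of GRCm38, with 22 exon blocks of 9010 bases and no overlap with another gene (GENCODE M21, matched by ENSMUSG00000056492). Adgrg1 (chromosome 8, 94974751 to 95014217, plus strand), Adgra2 (chromosome 8, 27085583 to 27123436, plus strand), Adgrl1 (chromosome 8, 83900105 to 83941954, plus strand) and Adgre5 (chromosome 8, 83723251 to 83741326, minus strand) share a chromosome. Adgra3 and Adgrd1 lie on chromosome 5, Adgrl2 on 3, Adgrg6 on 10 and Adgrg2 on X.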

How the data were processed

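The libraries, made with an Illumina TruSeq RNA kit per the labels' protocols, are in 1 deposited table of 20560 genes by 32 libraries. Its deposited values are on a log2 scale (-1.56 to 17.99), as the values show, whatever its name, which speaks of normalized counts. The tools were TopHat2 2.1.0, SAMtools 1.3.1, Bowtie2 2.2.6 and HTSeq 0.6.1, per the submitters' processing notes; the genome build, annotation, use of strand and the transform are not given in the sources used here.

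The values have the form of a regularized log, which was inverted. A whole read was met to within 0.1 by 95.77% of values (20% by chance) and by 318 of the 320 values of the 10 genes. On simulated reads of 3916 genes, 100% were rebuilt exactly. Reads are not independent molecules.

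Tests were run with limma 3.58.1 (R 4.3.3; trend and robust empirical Bayes) on the deposited log2 values, with Benjamini-Hochberg adjustment over all genes tested and calls at an adjusted p under 0.05. A gene was tested if 2 to the power of its value was at least 10 in at least 4 libraries of the fit. Knockdown (both shRNAs) against control used 1 fit of 8 libraries per day; the shRNAs were compared in 3-group fits per day; the time course used the 16 control libraries; the difference of effects between days used all 32. Groups came from the sample titles. Alternatives were other filters, a pseudocount of 8, equal totals, limma without trend, a replicate block, limma voom on rebuilt reads, other sets of libraries, and leaving out each library. None of 32 replicate pairs looked like repeats of 1 library (chi-square per degree of freedom 3.00 to 11.8).

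The 10 genes and all lists were chosen with earlier results of these data known. Genes named are the 10 members, Zbtb9, the 5 genes most correlated with Adgrf5 over 12 group means (predicted genes left out), from each of 3 lists the 2 largest called rises and falls per day, and defining markers; for some named list genes other days are also given. Positions are from GENCODE M21 (20521 of 20560 IDs matched) and promoter windows from RefSeq, both GRCm38; the authors' build may differ. Protein sequences were not used here.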

Additional observations from a re-analysis of the deposited data

Results flagged for a closer look

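The knockdown effect of 5 members changed with time, by a test of the difference between the effect at a later day and that at day 0. The test used limma on 32 libraries and covered 8 members other than Adgrf5 at 3 days. Of these 24 tests 11 were called, where 6.57%, 29.9% and 23.2% of all genes were called at days 3, 7 and 11. For Adgrg1 the effect was higher by 1.66 at day 7 (adjusted p = 4.7e-08) and by 0.88 at day 11 (adjusted p = 0.000896) than at day 0. For Adgrg2 it was higher by 0.45 at day 3 (adjusted p = 0.00926) and, at day 7, by 0.34 (0.0182, but 0.0563 with equal totals and 0.0594 without day 0 shRNA #1 replicate 1); at day 0 its shRNAs differed from each other by 0.44. For Adgrl1 the change was -0.45, -0.61 and -0.59 at days 3, 7 and 11 (adjusted p = 0.00395, 1.27e-05 and 3.2e-05). For Adgrg6 it was -0.66 at day 7 (adjusted p = 0.0149, but 0.0516 without day 7 shRNA #1 replicate 2). Its day 11 value was -0.77 (adjusted p = 0.00628). Adgra2 had a change of -0.46 at day 7 (adjusted p = 0.0177). Its day 11 change of -0.43 (adjusted p = 0.0302) missed the threshold without day 0 shRNA #1 replicate 2 (0.0609) or control replicate 4 (0.0514). It also missed it without day 11 shRNA #1 replicate 1 (0.0569) or 2 (change -0.28, 0.0591) or control replicate 1 (0.0701).

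In 5 of 80 groups of 4 libraries, 1 library stood apart from the other 3, and chance gives about 1 in 20 where the 4 are alike. Knockdown groups held 2 libraries of each shRNA, so a difference between the shRNAs makes such a flag less likely there. All 5 were control libraries, by log2 value: Adgra2 at 12.92 in day 11 replicate 1 (others 12.73 to 12.75), Adgrd1 at 3.63 in day 7 replicate 3 (others 3.18 to 3.24) and Adgre5 at 2.15 in day 3 replicate 4 (others 2.00 to 2.01). The other 2, at day 0, were Adgrg1 at 7.08 in replicate 4 (others 7.49 to 7.56) and Adgrg2 at 8.55 in replicate 2 (others 8.36 to 8.39).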

How the results depend on the processing

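The counts of members called in the control time course, in the difference of effects between days, and in knockdown against control at days 3 and 7 stayed within 1.5 times their value under every alternative run. In knockdown against control at day 0 (1 member) the count was 0 for limma without trend or robust and 2 with the shRNAs as separate groups, and 0 to 1 when single libraries were left out. At day 11 (5 members) it was 3 to 6 when single libraries were left out, the low value coming without shRNA #1 replicate 1 or control replicate 3 or 4. Between the shRNAs the counts were 2, 2, 3 and 1 at days 0, 3, 7 and 11 (35.0%, 19.6%, 16.4% and 22.0% of all genes called): limma without trend or robust gave 1 at day 3 and 0 at day 7, the fit with no filter gave 0 at day 7, and 1 fit of all 32 libraries gave 2 at day 11. Leaving out single libraries gave 1 to 2, 2 to 3, 1 to 3 and 1 to 2. The shRNA difference of Adgrf5 at day 11 ranged from -0.01 (without shRNA #2 replicate 2) to 0.49 with single libraries left out, and the day 3 change of Adgra2 in controls became -0.02 with equal totals.

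Replicate numbers showed little pairing of libraries over the 4 days together, but more at day 11. Same-numbered libraries of different arms correlated in their deviations by -0.01 to 0.21 (median 0.04, over 0.1 in 3 of 24 pairs). All 3 were at day 11, at 0.21 and 0.13 for shRNA #1 with control and 0.14 for shRNA #2 with control. Whether the libraries of that day shared batches was not tested. Controls of different days correlated by -0.09 to 0.12. With the replicate number as a block the members called in knockdown against control were 0, 2, 6 and 3 on the 4 days in turn, and all genes called fell from 430, 3506, 6328 and 4382 to 0, 845, 4112 and 1652. The calls lost were Adgrl2 at days 3, 7 and 11 (differences 0.33, 0.35 and 0.25, limma adjusted p = 0.3, 0.103 and 0.272), Adgrg2 at day 11 (0.288) and Adgra3 at day 0 (0.557).

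Over all genes, knockdown calls with the shRNAs as separate groups were 3340 at day 0 and 5311 at day 3; without trend or robust they were 261 at day 0, and leaving out single libraries gave as few as 111. With equal totals the share of calls that were higher moved from 25.1% to 43.3% for knockdown at day 0, from 50.1% to 38.6% for control day 3, from 45.8% to 61.9% for the shRNAs at day 7, and from 56.2%, 56% and 53.6% to 42.4%, 40.7% and 40.1% for the change of effect at days 3, 7 and 11. Depth limits Adgrd1, Adgre5, Zbtb9 and Adgrf5 at day 0.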

Other observations

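The 6 macrophage markers in the table summed to 74.8 to 112 normalized reads in control and 104 to 158 in knockdown libraries at day 7, and to 232 to 319 and 320 to 660 at day 11. Ptprc had at most 3 reads in any library, while Cd68, which adipocytes also express, was higher in knockdown by 0.87 at day 7 (limma adjusted p = 0.000189) and 0.86 at day 11 (adjusted p = 0.0284), and Lyz2 was lower by 0.75 at day 7 (adjusted p = 0.00167). Of 3 macrophage markers tested at day 7 these were the 2 called, where 47.6% of all genes were called. Preadipocyte and fibroblast markers fell for 6 of 8 tested at day 7 (Pdgfra, Pdgfrb, Col1a2, Dlk1, Ly6a and Vim) and 4 of 8 at day 11 in knockdown cells, where 22.6% and 16.2% of all genes were called lower, with summed levels of 477493 to 530276 normalized reads against 560616 to 624406 in controls at day 7. Vwf, an endothelial marker, was lower in knockdown at day 11 by 0.51 (adjusted p = 0.011), with Pecam1 at a difference of 0.22 without a call.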
